A study of Homo sapiens with 179 samples.

Results

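The 10 genes described here belong to the cell surface and were followed by RNA-seq in H1 cells, a long-established line of human embryonic stem cells: 3 cadherins (CDH1, CDH2, CDH3), 2 tight junction proteins (CLDN6, F11R), 2 tetraspanins (CD9, CD81) and 3 surface glycoproteins (EPCAM, PODXL, PROM1). They were taken by symbol from the deposited gene tables, where all 10 were found among 19084 genes. All groups were H1 cells on Matrigel in E8 medium with no genetic change named, and they differ in library protocol and in the number of samples sharing a sequencing lane. H1p43 (n = 3) and H1p16 (n = 3) were prepared with the TruSeq RNA Sample Prep Kit v2 at 12 samples per lane. LM-Seq, which captures polyadenylated RNA with oligo-dT and primes with random hexamers, gave 6 libraries in Lane 4, 24 in Lane 3, 48 in Lane 2 and 95 in Lane 1, each lane named for a lane that held that number of samples.

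The labels do not give the meaning of p in H1p43 and H1p16 and the way in which the LM-Seq libraries of a lane differ. Each LM-Seq library has a 5-digit number that recurs across lanes. No label ties libraries to separate cultures; a p-value here therefore covers only spread among libraries, and that spread may be technical. Totals of expected counts ran from 23680503 to 35852646 per TruSeq library, from 15780078 to 16583048 in Lane 4, and down to between 1040671 and 1539277 in Lane 1. The 10 pluripotency markers checked were all present in every group (POU5F1 averaged 3070 ± 13.1 TPM in H1p43 and 3191 ± 96.4 TPM in H1p16, SD, n = 3 each), as the labelled cell line implies. TPM is the deposited level, corrected for transcript length and library total, and the order of genes by TPM differed between the protocols, as with CD9 and CD81.

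Human embryonic stem cells grow as tight epithelial colonies. Classical cadherins bind the same cadherin on the neighbouring cell and hold the actin skeleton through catenins, while claudins and junctional adhesion molecules seal the tight junctions above them. Tetraspanins span the membrane several times and gather integrins and immunoglobulin-like partners into patches. EPCAM, podocalyxin and prominin 1 are glycoproteins used to stain and sort undifferentiated cells, and a switch from CDH1 to CDH2 is a familiar sign of epithelial cells becoming mesenchymal.

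The largest differences described below lie between library protocols, and they divide the tetraspanins and the cadherins. Coding sequence is therefore shown for 3 pairs with contrasting values, the last of them not of the same family. Each line gives the 120 bases in the middle of the coding sequence (GENCODE v29 transcript matched by its RefSeq accession, GRCh38), 5′ to 3′, with runs of at least 5 consecutive G or C in capitals. The tetraspanin pair is CD9 (chr12:6199715-6238271, + strand, window in exons 4 to 5) and CD81 (chr11:2376177-2397419, + strand, exons 4 to 5). The cadherin pair is CDH1 (chr16:68737225-68835548, + strand, exons 9 to 10) and its neighbour CDH3 (chr16:68636189-68722616, + strand, exon 10). The last pair is EPCAM (chr2:47345158-47387601, + strand, exons 3 to 5) and CLDN6 (chr16:3014712-3020071, - strand, exon 2).
CD9: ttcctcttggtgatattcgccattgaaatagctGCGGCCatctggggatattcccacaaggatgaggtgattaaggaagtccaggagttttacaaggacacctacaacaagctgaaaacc
CD81: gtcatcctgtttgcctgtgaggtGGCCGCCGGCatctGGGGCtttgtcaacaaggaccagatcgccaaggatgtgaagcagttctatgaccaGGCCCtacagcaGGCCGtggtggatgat
CDH1: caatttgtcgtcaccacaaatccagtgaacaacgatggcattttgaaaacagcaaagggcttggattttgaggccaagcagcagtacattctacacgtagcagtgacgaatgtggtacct
CDH3: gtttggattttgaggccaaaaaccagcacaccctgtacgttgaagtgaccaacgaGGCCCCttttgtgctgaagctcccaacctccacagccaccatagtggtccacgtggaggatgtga
EPCAM: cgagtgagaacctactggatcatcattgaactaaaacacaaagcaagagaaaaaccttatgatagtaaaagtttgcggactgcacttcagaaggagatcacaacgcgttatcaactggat
CLDN6: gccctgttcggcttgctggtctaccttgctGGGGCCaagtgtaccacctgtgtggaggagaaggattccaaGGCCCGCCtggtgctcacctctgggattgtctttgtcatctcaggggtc
The windows held 6 capital bases in CD9 and 25 in CD81, 0 in CDH1 and 6 in CDH3, and 0 in EPCAM and 14 in CLDN6. Their GC content was 45.8% in CD9 and 57.5% in CD81, and it was 53.3% in CDH3 and 59.2% in CLDN6, above CDH1 and EPCAM. The window of F11R, not printed, was close to that of CDH3, with 6 capital bases and 52.5% GC. Yet F11R read higher in LM-Seq than in TruSeq and CDH3 lower. Over the same window of 8192 tested genes matched to a single transcript, the median was 6 capital bases and 51.7% GC, and 65.1% of windows held at least 1 such run.

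All 10 genes were measured well above 0 in every library. In H1p43 and in H1p16 the highest levels were those of CLDN6, a claudin of early epithelia, and PODXL, a sialylated mucin-like protein that carries stem cell epitopes. CLDN6 averaged 972 ± 8.06 TPM in H1p43 and 1096 ± 4.77 TPM in H1p16, and PODXL 807 ± 3.70 TPM in H1p43 and 825 ± 16.7 TPM in H1p16 (SD, n = 3 each). The lowest was CDH2, N-cadherin, at 35.9 ± 0.836 TPM in H1p43 and 33.1 ± 1.26 TPM in H1p16. In Lane 4 PODXL led at 1055 ± 34.3 TPM, before CLDN6 at 861 ± 61.6, EPCAM at 737 ± 17.96 and CD9 at 718 ± 41.2 TPM, and CDH3, P-cadherin, was lowest at 74.8 ± 6.18 TPM (SD, n = 6).

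**Figure D1:**
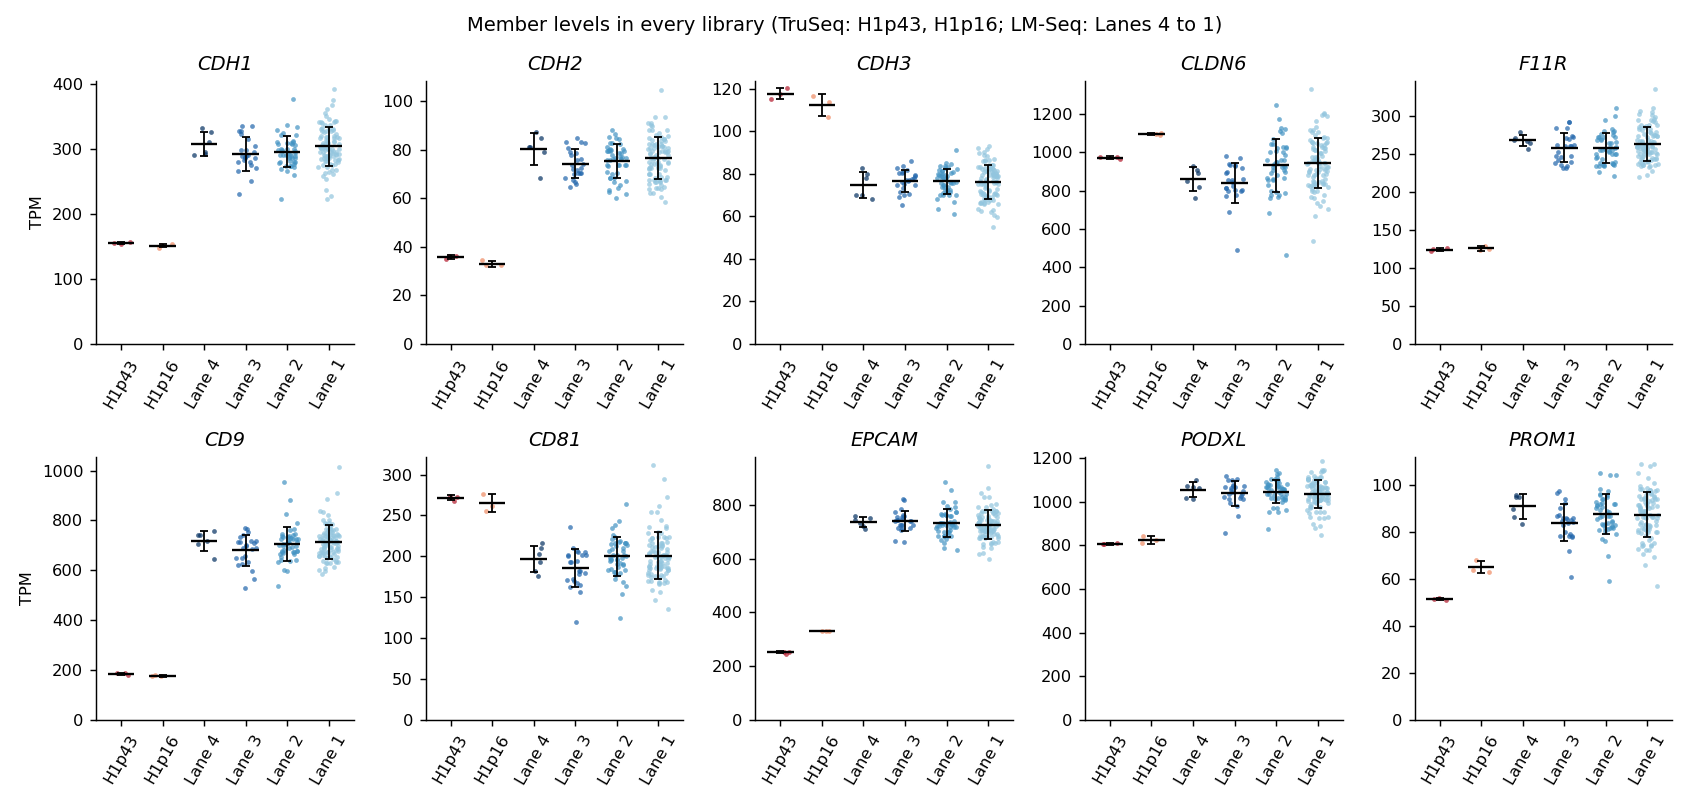
Level of each gene in every library, in TPM from 0 on a linear axis, for H1p43 and H1p16 (TruSeq, n = 3 each) and LM-Seq Lanes 4, 3, 2 and 1 (n = 6, 24, 48 and 95) in order of samples per lane. Points are libraries and bars are the mean with SD. The protocols separate for most genes, while the lanes of LM-Seq overlap for all 10.

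Ordered by mean, the groups fell into 2 blocks for most of the genes. For CDH1, CDH2, F11R, CD9, EPCAM and PODXL the 4 LM-Seq lanes came first and neighbouring lanes overlapped, with the ranges of the lowest lane and the higher TruSeq group apart. CDH3 had the opposite order, with H1p43 and H1p16 above the 4 lanes and no overlap between H1p16 at 106.8 TPM or more and Lane 3 at 86.1 TPM or less. For CLDN6, CD81 and PROM1 the LM-Seq range reached into the TruSeq range.

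The comparison of H1p43 with H1p16 asked whether the surface genes differed between these cells within the TruSeq protocol. EPCAM, PROM1 and CLDN6 were lower in H1p43, at 0.704, 0.731 and 0.822 times the H1p16 level by the fitted fold, and the cadherins and tetraspanins stayed between 0.951 and 1.00 times that level. Calls at an adjusted p below 0.05 were made for 7 of the 10 genes, all lower, with CDH1 and CD81 reversing, and F11R and PODXL losing their calls, on the TPM scale (edgeR's quasi-likelihood test with Benjamini-Hochberg adjustment over all genes). Calls were common in this comparison: 71.8% of 14574 tested genes were called, 36.4% higher and 35.4% lower.

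EPCAM, a homophilic adhesion glycoprotein of epithelia, read 246, 253 and 253 TPM in H1p43, against 329, 329 and 330.1 TPM in H1p16. The groups did not overlap and every H1p43 library lay below every H1p16 library. The log2 fold change was -0.51 ± 0.02 (SE, adjusted p = 1.60e-12 by edgeR's quasi-likelihood test).

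PROM1, the multi-span membrane protein known as CD133, read 51.4, 51.98 and 50.9 TPM in H1p43, against 63.1, 63.95 and 67.9 TPM in H1p16. All H1p43 values lay below the H1p16 values, and the log2 fold change was -0.45 ± 0.03 (SE, edgeR adjusted p = 6.11e-10). PODXL read 805, 805 and 812 TPM in H1p43, against 843, 823 and 809.5 TPM in H1p16. Here the groups overlapped by a single library, and the log2 fold change was -0.14 ± 0.02 (SE, edgeR adjusted p = 3.14e-07). Limma on log2(TPM + 1) gave -0.03 for PODXL and did not call it (adjusted p = 0.170).

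CLDN6 read 963, 976 and 978 TPM in H1p43, against 1101, 1092 and 1095 TPM in H1p16, with no overlap. Its log2 fold change was -0.28 ± 0.02 (SE, edgeR adjusted p = 1.53e-10). CLDN9, a claudin gene of similar sequence whose reads could be divided with CLDN6, was near the floor at 0.657 TPM in H1p43 and 1.92 TPM in H1p16. F11R, also called JAM-A, the immunoglobulin-like adhesion molecule of the tight junction, read 124.9, 122.1 and 125.8 TPM in H1p43, against 124.9, 123.4 and 129.6 TPM in H1p16. Its TPM values overlapped although the count test called it lower, at -0.13 ± 0.02 (SE, edgeR adjusted p = 0.000110), and limma on log2(TPM + 1) gave -0.02, not called (adjusted p = 0.533).

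The cadherins and tetraspanins lay close together in both groups. CDH1, E-cadherin, read 154.2, 157.3 and 155.5 TPM in H1p43, against 154.4, 148.6 and 151.9 TPM in H1p16, and CDH2 read 34.9, 36.3 and 36.4 TPM in H1p43, against 32.3, 32.4 and 34.55 TPM in H1p16. CDH3 read 117.6, 115.1 and 120.4 TPM in H1p43, against 116.7, 113.6 and 106.8 TPM in H1p16. CDH1 and CDH3 overlapped between the groups, and CDH2 had each H1p43 library above each H1p16 library.

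CD9, a tetraspanin that joins integrin and immunoglobulin-like partners, read 186, 188 and 178 TPM in H1p43, against 174, 179.95 and 176 TPM in H1p16. CD81, a related tetraspanin found on many cell types, read 274, 272 and 268 TPM in H1p43, against 277, 262 and 255 TPM in H1p16. Both overlapped between groups.

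The direction of the small differences depended on the scale. After edgeR's TMM scaling of counts, the log2 fold changes (H1p43 over H1p16) were -0.07 ± 0.02 for CDH1 and -0.07 ± 0.03 for CD81 (SE, adjusted p = 0.00621 and 0.0271 by the quasi-likelihood test), whereas limma on log2(TPM + 1) gave 0.04 for each, not called. The changes of CDH2, CDH3 and CD9 were 0.01, -0.04 and -0.05 and were not called by edgeR (adjusted p = 0.876, 0.209 and 0.140), while limma called CDH2 higher at 0.11 (adjusted p = 0.0171). The median change over all genes was 0.01 by edgeR and 0.09 on the TPM scale, and 50.7% of all edgeR calls were higher in H1p43 against 64.2% of the limma calls. EPCAM, PROM1 and CLDN6 were called lower on both scales, at -0.39, -0.33 and -0.17 on the TPM scale. None of the 10 was called by edgeR's glmTreat against a minimum of 1.5-fold, where 1606 of all genes were, and 0 of the 10 had an unadjusted p below 0.05.

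For 4 of the 10 genes (CDH2, CLDN6, EPCAM and PROM1) the TPM ranges did not overlap between H1p43 and H1p16, against 73.7% of all tested genes. The median absolute log2 fold change of the 10 was 0.10, and that of all tested genes 0.28. The signed median of the 10 was -0.10 by edgeR and 0.01 on the TPM scale. The call of CD81 was lost without H1p43 replicate 2 (log2 fold change -0.08, adjusted p = 0.0588), without H1p43 replicate 3 (-0.06, 0.114) and without H1p16 replicate 1 (-0.05, 0.0672). CD9 was called without H1p16 replicate 1 (-0.07, adjusted p = 0.0359) and CDH3 without H1p16 replicate 3 (-0.08, adjusted p = 0.00286, all by edgeR).

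Genes that work with these proteins moved in both directions in H1p43. The counts of each list stand beside 36.4% of all tested genes called higher and 35.4% called lower. Of 14 tested genes of the adherens junction 7 rose and 7 fell, and the 3 named by size all fell: PVRL3 (21.5 TPM in H1p43, 36.5 TPM in H1p16, log2 fold change -0.87) and PVRL1 (73.8 and 102.03 TPM in the same order, -0.53), both nectins that start cell contacts, and JUP (108.1 and 141.1 TPM, -0.48), plakoglobin, which links cadherins of adherens junctions and desmosomes. Of 11 desmosome genes 4 rose and 4 fell. PERP, a tetraspan protein of desmosomes, fell at -0.56 ± 0.03 and PKP4, a plakophilin, rose at 0.50 ± 0.03 (SE, both called by edgeR).

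Of 31 tight junction genes tested, 14 rose and 9 fell. CLDN11 averaged 5.24 TPM in H1p43 and 1.71 TPM in H1p16 (log2 fold change 1.54 ± 0.11), and CLDN19, another claudin, averaged 11.3 TPM in H1p43 and 5.62 TPM in H1p16 (0.90 ± 0.07, SE, both called by edgeR). Of 25 other tetraspanins and partners tested, 15 rose and 5 fell, beside 36.4% of all tested genes called higher and 35.4% lower. The median log2 fold change of the list was 0.24 beside 0.01 over all genes by edgeR, and 0.25 beside 0.09 on the TPM scale. TSPAN2 averaged 16.5 TPM in H1p43 and 5.70 TPM in H1p16 (1.44 ± 0.07), and TSPAN15, a regulator of the protease ADAM10, averaged 17.003 TPM in H1p43 and 7.13 TPM in H1p16 (1.15 ± 0.08), both well below CD9 and CD81.

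Among 11 other classical cadherins tested, 4 rose and 2 fell, all at low levels, CDH4 at 5.64 TPM in H1p43 and 3.66 TPM in H1p16 and CDH24 at 20.8 TPM in H1p43 and 17.04 TPM in H1p16 being the named ones. Of 13 partners of the glycoproteins, 5 rose and 5 fell. EZR, ezrin, which ties podocalyxin to actin, averaged 219 TPM in H1p43 and 331 TPM in H1p16 (-0.71 ± 0.02, SE, edgeR adjusted p = 1.59e-14), and SLC9A3R2, an adaptor between them, averaged 16.1 TPM in H1p43 and 8.03 TPM in H1p16 (0.91 ± 0.08).

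Of 22 other stem cell surface genes 8 rose and 9 fell. THY1, CD90, averaged 387 TPM in H1p43 and 495 TPM in H1p16 (-0.46 ± 0.02), and B3GALT5, which makes the core of the SSEA-3 and SSEA-4 glycolipids, averaged 11.4 TPM in H1p43 and 15.5 TPM in H1p16 (-0.56 ± 0.05). BST2, tetherin, averaged 51.6 TPM in H1p43 and 26.3 TPM in H1p16 (0.86 ± 0.05, SE, all called by edgeR). Of 18 regulators of the epithelial and mesenchymal states 5 rose and 10 fell. SNAI3, a zinc finger gene of the Snail family, averaged 14.1 TPM in H1p43 and 8.37 TPM in H1p16 (0.64 ± 0.08), while the epithelial transcription factor GRHL2 was at -0.64 ± 0.04 and the epithelial splicing regulator ESRP1 at -0.49 ± 0.03. GRHL1 and GRHL3, relatives of GRHL2 below the level set for named genes, were added after their values were seen. GRHL1 rose at 0.73 ± 0.10, and GRHL3 fell at -1.51 ± 0.17 (SE, all called by edgeR). GRHL3 averaged 0.887 TPM in H1p43 and 2.25 TPM in H1p16. The median of that list was -0.14.

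Sums of 5 of the 7 marker lists did not overlap between H1p43 and H1p16. The 10 pluripotency markers together reached 6648 to 6687 TPM in H1p43 and 8205 to 8457 TPM in H1p16. Of the 10, 9 were called lower, beside 35.4% of all tested genes, SOX2 among them at -0.29 ± 0.02 and NANOG at -0.24 ± 0.03 (SE, edgeR). The 12 fibroblast and stroma markers together reached 596 to 623 TPM in H1p43 and 446 to 466 TPM in H1p16, TAGLN having the highest level, with 2 of the 12 at 0 in every library. By gene the list was split: of 9 tested, 6 were called higher, TAGLN among them at 0.42, and 3 lower, PDGFRA among them at -1.62 (edgeR). The 8 primitive streak and mesoderm markers reached 45.2 to 45.6 TPM in H1p43 and 76.6 to 78.6 TPM in H1p16, mostly KDR. Only 2 of these were tested, KDR being called lower at -0.98 and TBX6 higher at 0.37 (edgeR). The 10 neuroectoderm markers reached 121.5 to 124.1 TPM in H1p43 and 135.3 to 143.1 TPM in H1p16, mostly NES. By gene, only 5 of the 10 neuroectoderm markers passed the count filter, and 4 of these were called higher in H1p43, against the direction of the sum. The 4 were low in level: PAX6 averaged 0.32 TPM in H1p43 and 0.20 TPM in H1p16. MAP2, the highest of them, averaged 6.36 TPM in H1p43 and 2.18 TPM in H1p16. NES was the 1 called lower, at -0.37, and the median log2 fold change was 0.58, the value of PAX6 (edgeR). The 6 blood markers reached 1.33 to 1.74 TPM in H1p43 and 0.74 to 1.10 TPM in H1p16. Sums of the endoderm and endothelial markers overlapped, at most 9.27 and 32.9 TPM. The part of the marker sums in the lower EPCAM, PROM1 and CLDN6 was not tested, and in bulk RNA fewer cells with a transcript and less of it per cell cannot be told apart.

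**Figure D2:**
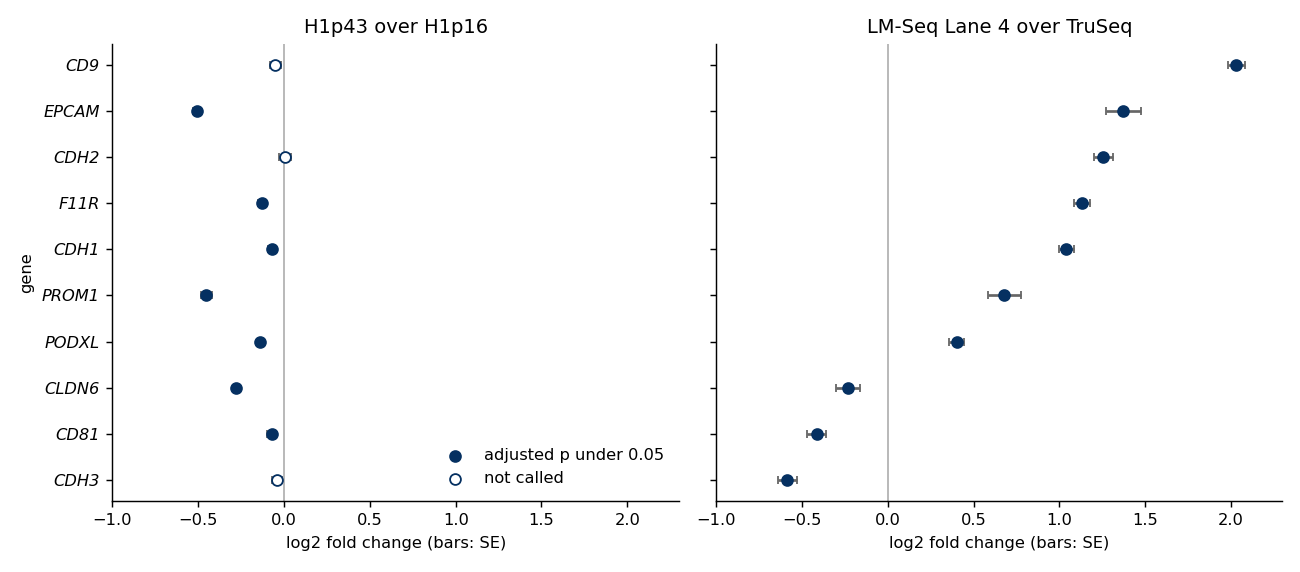
Log2 fold change of each gene, H1p43 over H1p16 on the left and LM-Seq Lane 4 over TruSeq on the right, from edgeR's fit on expected counts, with SE bars, filled where called. On the left the values run from -0.51 for EPCAM to 0.01 for CDH2, and CDH1 and CD81 change sign on the TPM scale. On the right they run from -0.59 for CDH3 to 2.03 for CD9.

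The comparison of Lane 4 with the 6 TruSeq libraries asked how the reading of the same genes differed between the LM-Seq protocol and the commercial kit. Lane 4 was used as the LM-Seq lane with the fewest samples. CD9, EPCAM, CDH2, F11R, CDH1, PROM1 and PODXL read higher in Lane 4, CD9 by 4.08-fold, EPCAM by 2.59-fold, CDH2 by 2.39-fold, F11R by 2.19-fold and CDH1 by 2.06-fold, with PROM1 and PODXL smaller. CDH3, CD81 and CLDN6 read lower, at 0.667, 0.751 and 0.851 times the TruSeq level. All 10 were called (edgeR's quasi-likelihood test with Benjamini-Hochberg adjustment), beside 71.3% of 13827 tested genes, 34.3% being called higher and 36.9% lower. Protocol, lane and the cells used cannot be told apart here.

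The tetraspanins gave the widest contrast. CD9 had a lowest, median and highest level of 644, 729.6 and 759 TPM in Lane 4, against 174, 179 and 188 TPM in TruSeq. CD81 had 175, 197 and 216 TPM in Lane 4, against 255, 270.2 and 277 TPM in TruSeq. The groups were apart for both genes but in opposite directions, with log2 fold changes of 2.03 ± 0.05 for CD9 and -0.41 ± 0.06 for CD81 (SE, edgeR adjusted p = 2.42e-14 and 6.91e-06).

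The order of the pair differed between the protocols. The ratio of CD9 to CD81 in TPM ran from 3.42 to 4.23 over the 6 libraries of Lane 4, and was 0.665 to 0.692 in H1p43 and 0.627 to 0.689 in H1p16. CD9 was above CD81 in every Lane 4 library and below it in every TruSeq library. Over all LM-Seq libraries the lowest ratio was 2.78, in Lane 1.

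The cadherins divided in the same way. CDH1 had a lowest, median and highest level of 291, 304 and 332 TPM in Lane 4, against 148.6, 154.3 and 157.3 TPM in TruSeq, and CDH2 had 68.5, 81.1 and 87.2 TPM in Lane 4, against 32.3, 34.7 and 36.4 TPM in TruSeq. CDH3 had 68.2, 74.05 and 82.8 TPM in Lane 4, against 106.8, 115.9 and 120.4 TPM in TruSeq. No cadherin overlapped between the protocols, with log2 fold changes of 1.04 ± 0.05 for CDH1, 1.26 ± 0.06 for CDH2 and -0.59 ± 0.06 for CDH3 (SE, edgeR adjusted p = 1.21e-11, 1.62e-11 and 1.24e-07).

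The ratio of CDH1 to CDH3 was 3.52 to 4.80 in Lane 4, 1.29 to 1.37 in H1p43 and 1.31 to 1.42 in H1p16. CDH1 exceeded CDH3 in each of these libraries. The ratio of CDH1 to CDH2 differed less, at 3.43 to 4.32 in Lane 4, 4.27 to 4.41 in H1p43 and 4.395 to 4.78 in H1p16. CDH1 stayed above CDH2 in all 179 libraries, the lowest ratio being 2.91 in Lane 1.

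At the tight junction, F11R had a lowest, median and highest level of 256, 268 and 279 TPM in Lane 4, against 122.1, 124.9 and 129.6 TPM in TruSeq, with a log2 fold change of 1.13 ± 0.05 (SE, edgeR adjusted p = 5.27e-12). CLDN6 had 764, 873 and 928 TPM in Lane 4, against 963, 1035 and 1101 TPM in TruSeq. The ranges did not meet, and the log2 fold change was -0.23 ± 0.07 (SE, edgeR adjusted p = 0.00813). Set against the H1p43 libraries alone, CLDN6 was at -0.08 ± 0.05 and not called (edgeR adjusted p = 0.157), and against the H1p16 libraries alone it was at -0.38 ± 0.05 (adjusted p = 5.08e-07).

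Among the glycoproteins, EPCAM had a lowest, median and highest level of 712, 739 and 758 TPM in Lane 4, against 246, 291 and 330.1 TPM in TruSeq. PODXL had 1011, 1067 and 1098 TPM in Lane 4, against 805, 811 and 843 TPM in TruSeq, and PROM1 had 83.5, 92.3 and 96.0 TPM in Lane 4, against 50.9, 57.5 and 67.9 TPM in TruSeq. All 3 were apart between protocols, with log2 fold changes of 1.37 ± 0.10, 0.40 ± 0.04 and 0.68 ± 0.10 (SE, edgeR adjusted p = 6.35e-09, 4.42e-07 and 1.11e-05). The TruSeq side of these comparisons mixes H1p43 with H1p16, and the EPCAM change was 1.66 against H1p43 alone and 1.13 against H1p16 alone, the PROM1 change 0.93 and 0.46 in the same order.

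All 10 genes had TPM ranges that did not overlap between Lane 4 and TruSeq, beside 53.9% of all tested genes. The median absolute log2 fold change of the 10 was 0.86, and that of all tested genes 0.59. Under glmTreat with a minimum of 1.5-fold, CD9, EPCAM, CDH2, F11R and CDH1 were called, beside 4627 of all genes. The marker sums differed too: the pluripotency markers reached 10923 to 11864 TPM in Lane 4 and 6648 to 8457 TPM in TruSeq, and the fibroblast and stroma markers 375 to 402 TPM in Lane 4 and 446 to 623 TPM in TruSeq. Neuroectoderm markers reached 193.8 to 246 TPM in Lane 4 and 121.5 to 143.1 TPM in TruSeq, mostly NES. Primitive streak and mesoderm markers reached 82.8 to 92.96 TPM in Lane 4 and 45.2 to 78.6 TPM in TruSeq, mostly KDR. By gene, 1 neuroectoderm marker was called higher, 1 lower and 3 not called, with a median log2 fold change of -0.27. In the mesoderm list 1 was called higher and 1 lower, and in the fibroblast and stroma list 4 and 4 (edgeR). The sums of the endoderm, endothelial and blood markers overlapped. Their part in the differences of the 10 genes was not tested.

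Partners of these genes were also split between higher and lower readings. Of 14 adherens junction genes 5 rose and 5 fell in Lane 4. CTNNB1, beta-catenin, averaged 517 TPM in Lane 4 and 287 TPM in TruSeq (0.92 ± 0.06), while PVRL2, nectin 2, averaged 70.1 TPM in Lane 4 and 179 TPM in TruSeq (-1.27 ± 0.05), and PDLIM7, a cytoskeletal adaptor, 27.2 TPM in Lane 4 and 84.7 TPM in TruSeq (-1.60 ± 0.09, SE, all called by edgeR). Of 29 tight junction genes 14 rose and 11 fell, with the polarity protein PARD6B at 1.84 ± 0.07, the scaffold TJP1 (ZO-1) at 1.59 ± 0.07 and CLDN19 at -1.56 ± 0.24. Of 9 desmosome genes 5 rose and 3 fell, PERP among the higher at 1.31 ± 0.12 and DSC2, desmocollin 2, at 0.91 ± 0.10, with PKP3 lower at -1.07 ± 0.15.

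Of 23 other tetraspanins and partners 8 rose and 12 fell. CD151, a laminin-integrin partner, averaged 27.5 TPM in Lane 4 and 81.8 TPM in TruSeq (-1.53 ± 0.08), and TSPAN7 averaged 10.5 TPM in Lane 4 and 29.4 TPM in TruSeq (-1.44 ± 0.18). The list's median was -0.59, beside -0.06 over all genes, so CD9 at 2.03 stood on the other side of it. Of 9 other classical cadherins tested 0 rose and 3 fell by edgeR, CDH24 at -1.25 ± 0.10 being the named one.

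Of 13 partners of the glycoproteins 5 rose and 2 fell, with RDX, radixin, at 1.08 ± 0.05, the protease ADAM10 at 0.97 ± 0.06 and SLC9A3R2 at -1.11 ± 0.21. Of 22 stem cell surface genes 9 rose and 9 fell. ITGA6, the laminin receptor subunit, averaged 195 TPM in Lane 4 and 84.03 TPM in TruSeq (1.25 ± 0.04), and BSG, basigin, 394 TPM in Lane 4 and 939 TPM in TruSeq (-1.22 ± 0.04). Of 17 epithelial and mesenchymal regulators 3 rose and 5 fell, with the zinc finger gene SNAI3 at -2.46 ± 0.26, its relative SNAI1, a repressor of CDH1, at -0.77 ± 0.18, and the keratin KRT18 at -0.98 ± 0.08 (SE, edgeR). Of the 10 pluripotency markers 7 rose and 2 fell, with a median of 0.57. POU5F1 was at -0.54 ± 0.05, SOX2 at -0.69 ± 0.08 and NANOG at 0.29 ± 0.07.

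The protocol difference moved with base composition. Among the 13512 tested genes matched to a GENCODE v29 transcript (97.7% of 13827), Spearman's rho between transcript GC content and the Lane 4 over TruSeq log2 fold change was -0.57, given as a description across genes that are not independent. The genes were cut by GC into 5 classes of equal size. In the class lowest in GC the median change was 0.50 and 63.1% were called higher, and in the class highest in GC the median was -0.85 and 74.95% were called lower. For H1p43 over H1p16 the same rho was 0.12. Over the 10 genes, rho of GC content with the Lane 4 over TruSeq change was -0.70. Transcript length also went with that change, at a rho of 0.29 over the 13512 genes.

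The windows printed above come from genes on both sides of this gradient. Whole transcripts of CD9, CDH2 and PROM1 held 44.99%, 44.97% and 42.6% GC, those of EPCAM, F11R and CDH1 47.04%, 47.6% and 48.6%, and those of CDH3, CLDN6, PODXL and CD81 54.1%, 57.7%, 59.7% and 62.7%. The 3 genes that read lower in Lane 4 were thus among the 4 richest in GC. PODXL was the exception, at 0.40 in a class whose median was -0.85, above 95.3% of the genes of that class.

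CD9 was above 99.3% of the genes of its own GC class, whose median was 0.30. EPCAM was above 97.8% of its class, F11R above 95.6%, CDH1 above 93.7% and CDH2 above 92.6%, while CDH3 stood at 41.97%, CLDN6 at 61.5%, CD81 at 74.1% and PROM1 at 72.7% of theirs. What part GC content or transcript length had in any of these values was not tested.

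**Figure D3:**
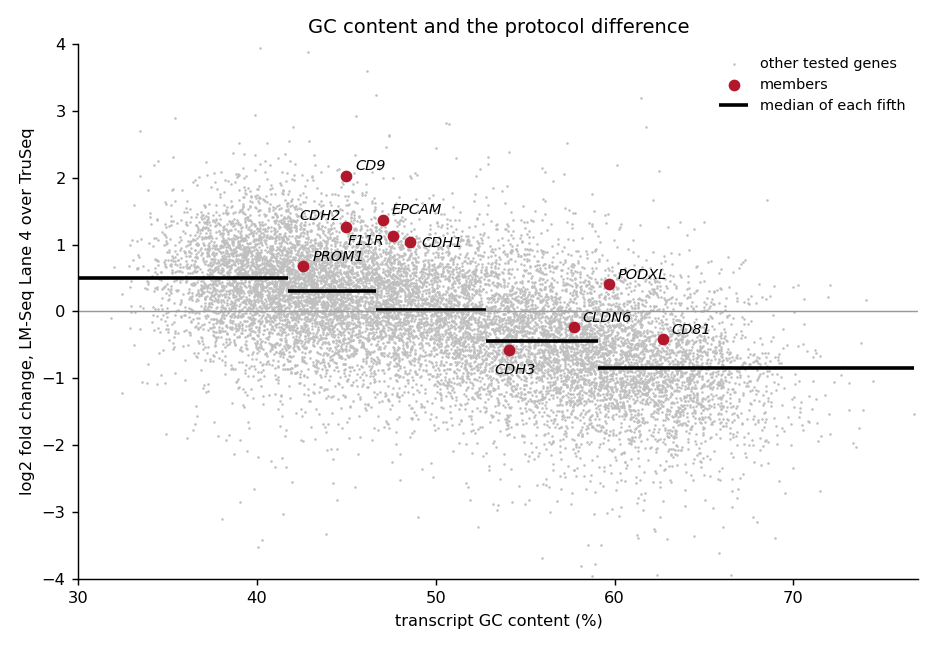
GC content of the transcript in percent (x axis) against the log2 fold change of LM-Seq Lane 4 over TruSeq (y axis) for 13512 genes in grey, 24 of which lie outside the axes, with the 10 surface genes in red and the median of each of 5 equal GC classes as a black bar. The medians step down from 0.50 to -0.85, and CD9 at 2.03 and PODXL at 0.40 stand well above the median of their classes.

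The comparisons between lanes asked whether the readings depended on how many samples shared a lane, over library numbers present in both lanes. None of the 10 genes was called in Lane 2, Lane 3 or Lane 4 against Lane 1 by edgeR's quasi-likelihood test, with background calls of 0% of 10120, 0% of 10871 and 0.0161% of 12419 tested genes. Unadjusted p below 0.05 was reached by 182 genes for Lane 2 and 216 for Lane 3, and by 0 of the 10 in any of the 3 comparisons. The edgeR fit left out the library number, so its standard errors and p-values also hold the spread between numbers. DESeq2 called 0, 0 and 2 genes and limma on log2(TPM + 1) called 0, 0 and 2, none of them among the 10.

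The log2 fold changes of the 10 lay between -0.05 and 0.00 for Lane 2, between -0.06 and 0.01 for Lane 3 and between -0.04 and 0.07 for Lane 4, with standard errors of at most 0.04, 0.05 and 0.07. CLDN6 averaged 932 TPM in Lane 2 and 949 TPM in the same 48 numbers of Lane 1, 842 TPM in Lane 3 and 856 TPM in the same 24 numbers of Lane 1, and 861.5 TPM in Lane 4 and 861.0 TPM in the same 6 numbers of Lane 1. The CD9 mean was 707 TPM for Lane 2 against 716 TPM for the same numbers of Lane 1, and 718 TPM for Lane 4 against 690.2 TPM. Within numbers, CD9 and CDH1 were each higher in Lane 4 than in Lane 1 in 6 of 6 numbers and PODXL in 1 of 6, at log2 fold changes of 0.06, 0.05 and -0.02 that were not called.

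Same-numbered libraries deviated together across lanes, so the fit was also made with the library number as a replicate block. It called 26 genes in Lane 2, 44 in Lane 3 and 13 in Lane 4, and 0 of the 10, whose lowest adjusted p was 0.256. When all libraries of Lanes 3 and 1 were compared, whether or not the number was shared, CLDN6 was called lower in Lane 3 at -0.17 ± 0.04 (edgeR adjusted p = 0.0165), with means of 842 TPM (Lane 3) and 944 TPM (Lane 1). In the 24 numbers that both lanes hold, the Lane 1 mean was 856 TPM.

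Within a lane the 10 genes varied from library to library by different amounts. In Lane 1, at a mean of 152.3 to 3155 expected counts per gene, the coefficient of variation in TPM ran from 6.19% for PODXL to 14.3% for CD81 and 14.01% for CLDN6. Counting alone would give 1.78% for PODXL, 8.10% for CD81 and 3.91% for CLDN6. CDH2 varied by 11.3% and CDH3 by 10.5%, with counting values of 7.63% and 7.73%.

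The library number test asked whether these differences recurred when the same number was read in another lane. All 10 genes were called by the F test of number terms over the 48 numbers of Lanes 1 and 2 (edgeR's quasi-likelihood test), as were 91.3% of 10120 genes, so being called does not set the 10 apart. F was 32.8 for CLDN6, 13.2 for EPCAM, 12.0 for CD9, 11.5 for CDH1, 9.47 for F11R, 8.76 for PODXL and 6.11 for CD81, beside a median of 2.25 over all genes. PROM1, CDH3 and CDH2 had 2.71, 2.57 and 2.44 (largest adjusted p of the 10, 0.000238). The median over all genes was not matched for counts, and PODXL averaged 3155 counts per library in Lane 1. With counts thinned to the lowest library total, 6563 genes were called in place of 9241, so F also follows depth.

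The level of a number in Lane 1 was repeated in Lane 2 to different degrees. On log2(TPM + 1) over 48 numbers, Pearson's r was 0.95 for CLDN6 and 0.94 for PODXL (Spearman's rho 0.92 and 0.89, each permutation p = 1e-05, the smallest that 100000 permutations can give, adjusted p = 8.28e-05 for r). It was 0.85 for CDH1, 0.83 for CD9, 0.79 for EPCAM, 0.77 for F11R and 0.76 for CD81, with rho of 0.77, 0.65, 0.66, 0.76 and 0.69 at the same permutation p. PROM1 reached 0.57, CDH3 0.52 and CDH2 0.36 (rho 0.48, 0.46 and 0.37, adjusted permutation p = 8.28e-05, 0.000666 and 0.0221 for r). The median over 12494 genes was 0.38, and 66.3% of them were called.

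**Figure D4:**
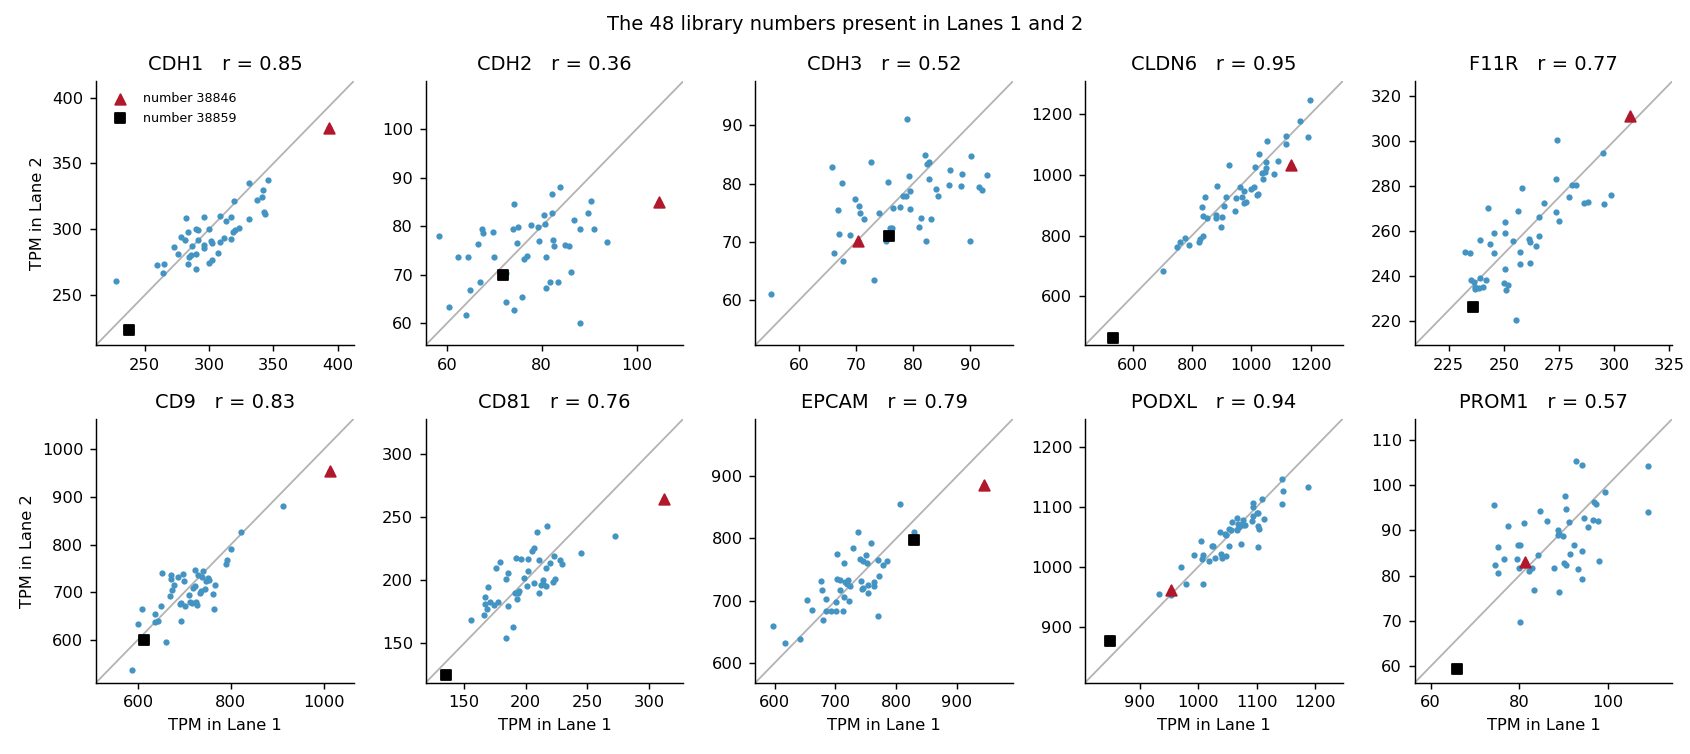
TPM in Lane 2 (y axis) against TPM in Lane 1 (x axis) for the 48 library numbers in both lanes, with the line of equality and r computed on log2(TPM + 1). Points hug the line for CLDN6 (r = 0.95) and PODXL (r = 0.94) and scatter widely for CDH2 (r = 0.36). The number with the highest CD9 (triangle) and the number with the lowest CLDN6 (square) lie at the ends of several panels.

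Leaving out the 2 numbers farthest from the Lane 1 median gave r of 0.92 for CLDN6, 0.90 for PODXL, 0.82 for CDH1, 0.73 for CD9, 0.72 for EPCAM, 0.73 for F11R, 0.64 for CD81, 0.47 for CDH3, 0.39 for PROM1 and 0.36 for CDH2. Between Lanes 2 and 3, over 24 numbers and at greater depth, r was 0.98 for CLDN6 and 0.97 for PODXL and 0.57 for CDH2, beside a median of 0.54 over all genes.

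The same 2 library numbers recurred at the extremes. The first had the highest CDH1, CDH2, CD9, CD81 and EPCAM in Lane 1 and the highest CDH1, F11R, CD9, CD81 and EPCAM in Lane 2. Its CD9 was 1014 TPM in Lane 1 and 955 TPM in Lane 2, where the lane medians were 710.3 and 705 TPM, and its CDH1 was 393 TPM in Lane 1 and 377 TPM in Lane 2 at medians of 301 and 293 TPM. Its PODXL, at 954 TPM in Lane 1 and 962 TPM in Lane 2, lay below the medians of 1042 and 1060 TPM.

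The second had the lowest CLDN6, CD81 and PODXL in Lanes 1, 2 and 3, and the lowest CDH1 and PROM1 in Lanes 2 and 3. Its CLDN6 was 535, 463 and 489.9 TPM in Lanes 1, 2 and 3, at medians of 943, 929.5 and 851 TPM. Its EPCAM was above the medians, at 829, 797 and 822 TPM, and was the highest of Lane 3. Without both numbers all 10 genes were still called by the F test, at F of 25.9 for CLDN6 and 1.97 for CDH2 (numbers chosen after the values were seen), and r was 0.93 for CLDN6 and 0.31 for CDH2 over 46 numbers.

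The 6 numbers present in all 4 lanes repeated their levels to different degrees, shown here for the genes with the highest and lowest r. For CLDN6, the number lowest in Lane 4 read 792, 768, 779 and 764 TPM in Lanes 1, 2, 3 and 4, and the number highest in Lane 4 read 962, 959, 942 and 928 TPM. The order of the 2 numbers was the same in each lane, although another number was the lowest of the 6 in Lane 1, at 776 TPM. For CDH2, the number lowest in Lane 4 read 88.1 TPM in Lane 1 and 60.03, 65.9 and 68.5 TPM in Lanes 2, 3 and 4, and its high value in the shallowest lane did not recur.

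Correlations between pairs of the 10 genes varied in sign and size across libraries. Of 45 pairs among the 10, 34 had a positive r over the 48 libraries of Lane 2, with a median of 0.29 and a range from -0.485 to 0.758, given as a description since libraries of a lane share their run and differ in depth. The share over all pairs of genes was not computed, so this count does not set the 10 apart. Lane 2 also holds the 2 numbers described above at the extremes. CDH1 went with CD81 (0.76) and with F11R (0.68), and in the 47 Lane 1 libraries whose number is not in Lane 2 the values were 0.51 and 0.72. Not every pair repeated: CLDN6 with CD81 was at 0.64 in Lane 2 and 0.08 in those other libraries. EPCAM ran against PODXL (-0.485) and CLDN6 (-0.481), with -0.379 and -0.377 in the other libraries.

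Other genes with the most similar pattern over Lane 2, among 8292 with a mean of at least 10 TPM, were found for each of the 10. They were picked for the highest r in Lane 2, so that r is raised by the choice. By r in the other 47 Lane 1 libraries, their ranks ran from 1 for CDH1 with F11R to 2017 for SCARB2 with CDH2. CDH1 was closest to DPPA4 (r = 0.85, and 0.77 in the other 47 Lane 1 libraries) and TRA2A (0.84 and 0.70). PODXL was closest to CD24, another mucin-like stem cell surface glycoprotein (0.87 and 0.83), and SLC7A1 (0.85 and 0.54). F11R was closest to CDH1 itself (0.68 and 0.72) and HMGCS1 (0.67 and 0.69).

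CLDN6 was closest to MTA1 (0.86, and 0.51 in the other libraries) and C11orf10 (0.86 and 0.66). CD9 was closest to SRSF1 (0.82 and 0.54) and C6orf62 (0.78 and 0.49), and CD81 to LRRN1 (0.84 and 0.42) and ACTB (0.80 and 0.52). EPCAM was closest to NPM1 (0.662 and 0.415) and EBNA1BP2 (0.62 and 0.38). CDH2 was closest to SCARB2 (0.63 and 0.25) and CNOT7 (0.56 and 0.34), and CDH3 to MYL9 (0.66 and 0.35) and MDH2 (0.52 and 0.39). PROM1 was closest to SSR1 (0.77 and 0.46) and LRRN1 (0.77 and 0.64).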

How the data were processed

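Gene levels were measured by RNA-seq in 179 libraries of the H1 cell line. The tools named per the submitters' processing notes are RSEM 1.2.3, Bowtie 0.12.8 and CASAVA 1.8.2, on build hg19, and no source used here says whether counting used strand. The authors deposited a table of expected counts (RSEM's estimates, which need not be whole) and a table of TPM, both with all libraries as columns. RSEM divides reads shared by similar genes, so a paralogue can take part of a gene's count.

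Expected counts were rounded to whole numbers, filtered with filterByExpr, scaled by TMM and tested with edgeR 4.0.16 (quasi-likelihood, Benjamini-Hochberg over all genes tested, called below 0.05) in R 4.3.3. SE is the log2 fold change divided by the square root of F. DESeq2 1.42.0 and limma 3.58.1 on log2(TPM + 1), restricted to genes averaging 1 TPM or more, were alternatives. Fits were tested on simulated data. Correlations between Lanes 1 and 2 used numpy 2.4.6, with ranks from scipy 1.17.1 and 100000 permutations counted with numba 0.67.0, adjusted over 12494 genes. Within each group, no pair of libraries was alike within sampling noise. Same-numbered libraries of different lanes are not among these pairs.

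Lanes were compared over library numbers in both lanes. Correlations of same-numbered deviations were at least 0.162 over 48 pairs, but the main fit left out this pairing. The replicate block included it. The members and lists were chosen with earlier results of these data known. From each list and comparison the text names up to 3 called genes with the largest change, if the higher group averaged 5 TPM or more and the groups did not overlap, and for each of the 10 genes the 2 most alike. CLDN9, GRHL1 and GRHL3 were added after their values were seen. A gene that this rule names is not reported here. Transcript GC content and sequences come from GENCODE v29 (GRCh38), matched by RefSeq accession or symbol; no coordinates were converted from hg19.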

Additional observations from a re-analysis of the deposited data

How the results depend on the processing

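For H1p43 against H1p16, DESeq2 called 7 of the 10 genes and 9339 genes in all, and leaving out 1 library gave 9828 to 10470 genes. Limma called 4 of the 10 on log2(TPM + 1), on log2(TPM + 0.1) and with no filter, and CDH1 then read 0.038 and CD81 0.037 in all 3. With a minimum of 1.5-fold, 0 of the 10 and 1606 genes were called. The cause of these shifts was not tested. Same-numbered H1p43 and H1p16 libraries correlated at 0.0329 to 0.0635, so their numbers do not pair them; the replicate block called 10463 genes.

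For Lane 4 against TruSeq, DESeq2 called all 10 and 10410 genes, leaving out 1 library gave 9493 to 9795, and the 1.5-fold minimum left 5 of the 10 and 4627 genes. No paired analysis was possible because these groups share no library number.

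Between lanes, the replicate block called 26, 44 and 13 genes in Lanes 2, 3 and 4 against Lane 1, and 8, 10 and 3 with counts also thinned to the lowest library total, a setting chosen after seeing the data. Other settings gave 1 gene in Lane 2 with no filter, 1 in Lane 4 with thinned counts and 0 in Lane 4 with all libraries. With all libraries of Lane 3, 1 of the 10 (CLDN6) and 60 genes were called. Depth limits Lane 1 most: CD81 rested on 96 to 233 counts per library there.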
